A study of Mus musculus with 12 samples.

Results

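Transcripts of Mx1, Mx2, Rsad2, Cmpk2, Bst2, Ifitm3, Samhd1, Ifi27l2a, Ifi44 and Ifi35, a set of 10 genes whose products restrict viruses or are induced together with such factors, were followed in MC38 tumor cells exposed to a MEK inhibitor. Each gene was represented by the probe set that carries its symbol alone and has the highest mean over all 12 arrays, and its other probe sets were examined beside it. In this way 9 of the 10 genes were measured, among 18193 genes on the array that could be named. Ifi44 was not analysed here, because no probe set was paired with its symbol or gene identifier in the annotation used.

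Antiviral effectors are the working end of the interferon response. Type I interferon binds a receptor at the cell surface, the kinases Jak1 and Tyk2 act on transcription factors that include Stat2, and with Irf9 these form a complex that binds interferon-stimulated response elements (ISRE) next to the genes it switches on. The products act at different steps of an infection. Ifitm3 hinders the fusion of enveloped viruses with endosomes, the dynamin-like Mx proteins act on incoming viral nucleocapsids or replication complexes, Samhd1 degrades the deoxynucleotides (dNTP) that reverse transcription needs, viperin (the Rsad2 product) makes a chain-terminating nucleotide from CTP, the nucleotide kinase encoded by Cmpk2 next to it phosphorylates CMP and UMP, and tetherin (the Bst2 product) holds budding virions at the cell surface. Ifi35 forms a complex with Nmi, and Ifi27l2a belongs to the small membrane proteins of the Ifi27 family.

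MC38 is a colon carcinoma line of C57BL/6 mice, here grown alone as a monolayer. There were 4 groups of 3 arrays, namely 72 h with 100 nM GDC-0623, 72 h with its solvent DMSO, 24 h with 100 nM GDC-0623 and 24 h with DMSO, without any added interferon, virus or other cell type in the labels. The comparisons ask how the cells respond to inhibition of MEK, the kinase that activates ERK, early and late. All 12 arrays come from the same cell line, and the study describes the 3 arrays of a group as biological replicates without saying what was repeated, so that the p-values measure the spread between these samples.

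The values are RMA (robust multichip average) expression values on the log2 scale, on which a step of 1 is a 2-fold difference, and readings near 3 to 5 cannot be told from background. Unless another scale is named, levels and differences below are on that scale, differences are given with the standard error of the fit, and adjusted p-values are from limma with 3 arrays per group and a threshold of 0.05. Array medians lay between 4.63 and 4.69. Replicate 1 of 72 h GDC-0623 stood apart on the first principal component (77.4, against 44.8 and 49.8 for replicates 2 and 3), which held 58.6% of the variance. The drug labels were checked with Egr1, an immediate early transcription factor that ERK induces, and Dusp6, an ERK phosphatase. Egr1 differed by −5.57 at 72 h and by −4.90 at 24 h between GDC-0623 and DMSO, Dusp6 by −2.12 at 24 h, and all 8 ERK output genes examined were lower with the drug at both times. In bulk RNA of this kind, fewer cells of a type and less RNA per cell cannot be told apart.

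The stretches of promoter in which an ISRE core was found are shown because the complex described above binds that element. Windows without such a match are not shown. Windows of 300 bases, from 250 before to 50 after the start of the gene, were available for 6 of the 9 measured genes (RefSeq sequence, build GRCm38.p6; not for Mx1, Mx2 and Ifi27l2a), and were searched on both strands for GAAANNGAAA, a core of the ISRE, and for TTCNNNGAA, the core of the gamma-activated site (GAS). Capitals mark the letters of ISRE core matches, and the genes all lie on the minus strand, at chr12:26456453-26456702, chr8:71537473-71537722 and chr7:141010716-141010742.
Rsad2: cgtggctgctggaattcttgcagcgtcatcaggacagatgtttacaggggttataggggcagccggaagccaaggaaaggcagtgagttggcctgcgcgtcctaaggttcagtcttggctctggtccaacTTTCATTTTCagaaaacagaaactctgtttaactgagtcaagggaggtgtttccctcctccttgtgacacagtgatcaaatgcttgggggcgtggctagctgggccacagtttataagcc
Bst2: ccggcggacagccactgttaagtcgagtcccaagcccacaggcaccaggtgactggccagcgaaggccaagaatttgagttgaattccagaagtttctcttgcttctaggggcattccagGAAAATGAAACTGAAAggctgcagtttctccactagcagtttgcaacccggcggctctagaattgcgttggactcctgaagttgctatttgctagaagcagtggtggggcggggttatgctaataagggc
Ifitm3: GAAAAGGAAActtctgaGAAACCGAAA
The Rsad2 and Bst2 pieces are the 250 bases before the start. In Rsad2 the match is on the opposite strand and begins at position −120 relative to the start. In Bst2, 2 matches overlap, beginning at −130 and −124, and a GAS match ends within the first of them. The Ifitm3 piece of 27 bases lies just after the start, with matches beginning at 3 and 20 and a GAS match reaching into the second of them. Thus 3 of 6 windows held an ISRE core, which is found in 3.44% of 32851 promoter windows, and 4 of 6 held a GAS match (Bst2, Ifitm3, Samhd1 and Ifi35), which is found in 8.3%. The Cmpk2 window held neither sequence. A match is a description of the letters and not evidence of binding.

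After 72 h, all 9 measured effectors were higher in GDC-0623 than in DMSO, each at least 2-fold and with no overlap between the arrays of both groups. Of all genes, 13.8% were called higher in this comparison, and 21.3% were higher with no overlap. After 24 h, 5 of the 9 were higher, namely Rsad2, Cmpk2, Ifi35, Bst2 and Samhd1, against 13.3% of all genes, and only Rsad2 and Cmpk2 reached 2-fold. At this time 6 of the 9 did not overlap, against 21.2% of all genes. The median difference of the 9 genes was 2.02 at 72 h and 0.33 at 24 h, while the median over all genes was −0.03 at both times. None was called lower, and none had a negative difference at an unadjusted p under 0.05. The 5 genes called at both times compare with 9.39% of all genes called higher at both.

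**Figure D1:**
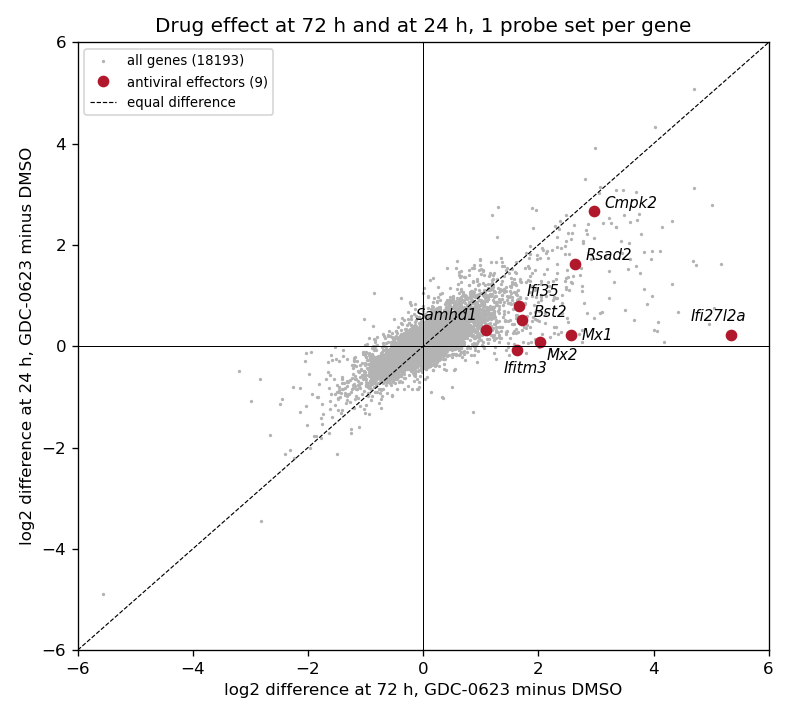
Drug effect of 18193 genes, each represented by 1 probe set, as the log2 difference GDC-0623 minus DMSO at 72 h (x axis) and at 24 h (y axis). The 9 effectors (red) lie right of 0, and all lie below the dashed line of equal differences. Cmpk2 is nearest to that line, and Ifi27l2a is farthest from it.

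Rsad2 and its neighbor Cmpk2 on chromosome 12 responded early. Viperin is a radical SAM enzyme, and Cmpk2 encodes a mitochondrial kinase of CMP and UMP. Rsad2 stood at 12.45, 11.53 and 11.81 in 72 h GDC-0623, against 9.67, 9.26 and 8.93 in 72 h DMSO, a rise of 2.64 ± 0.24 (6.25-fold, adjusted p = 1.38e-04). At 24 h it stood at 8.80, 8.29 and 7.91 with GDC-0623, against 7.01, 6.71 and 6.38 with DMSO, a rise of 1.63 ± 0.22 (3.10-fold, adjusted p = 9.28e-04). Each of the 4 groups lay clear of the others, in the order 72 h GDC-0623, 72 h DMSO, 24 h GDC-0623 and 24 h DMSO, so that the level in DMSO at 72 h was above that reached with the drug at 24 h.

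Cmpk2 stood at 9.88, 9.10 and 9.66 in 72 h GDC-0623, against 6.73, 6.47 and 6.54 in 72 h DMSO, and rose by 2.97 ± 0.18 (7.82-fold, adjusted p = 1.88e-05). With 7.32, 7.32 and 6.95 in 24 h GDC-0623, against 4.76, 4.32 and 4.49 in 24 h DMSO, its rise at 24 h was 2.67 ± 0.13 (6.38-fold, adjusted p = 6.12e-06), the largest among the 9 genes at that time. The groups did not overlap here either, but the order of the middle groups was the other way round, with 24 h GDC-0623 above 72 h DMSO. On the second Cmpk2 probe set, described with the probe sets, these middle groups overlapped. On the chosen probe set the 24 h DMSO arrays were in the background range, so that the fold at 24 h depends on the background.

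Samhd1, a dNTP hydrolase that lowers the nucleotide supply of non-dividing cells, had the smallest rise at 72 h. It stood at 10.11, 9.59 and 9.76 in 72 h GDC-0623, against 8.79, 8.74 and 8.67 in 72 h DMSO (1.09 ± 0.13, 2.12-fold, adjusted p = 4.67e-04). At 24 h the arrays read 9.12, 8.99 and 9.15 with GDC-0623, against 8.73, 8.73 and 8.81 with DMSO (0.33 ± 0.07, 1.26-fold, adjusted p = 0.0128). Both treated groups lay above both DMSO groups, and the DMSO groups overlapped each other. In 1 fit over all 12 arrays the call at 24 h was lost (adjusted p = 0.0525).

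The enzymes that make and convert dNTP mostly missed the adjusted threshold, and more of them fell than rose. Of 16 measured genes of dNTP synthesis and turnover, 1 rose and 4 fell at 72 h, where 13.8% of all genes were called higher and 12.4% lower. At 24 h, 1 rose and 3 fell, against 13.3% of all genes higher and 8.23% lower. At an unadjusted p under 0.05, 8 were lower and 1 higher at 72 h, and 6 were lower and 2 higher at 24 h. The medians were −0.22 at 72 h and −0.06 at 24 h. Dctd, the dCMP deaminase, differed by −0.88 at 72 h and −0.75 at 24 h. Dut, the dUTPase, fell by 0.67 at 72 h, and the thymidine kinase Tk1 fell by 0.59 at 24 h. The gene that rose at both times was Cmpk1, the cytosolic relative of Cmpk2 (0.50 and 0.38, adjusted p = 0.00179 and 0.00413).

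Bst2 and Ifitm3, which encode membrane proteins acting at virus exit and at virus entry, were well above background in every group and parted at 24 h. Bst2 stood at 12.51, 11.96 and 12.19 in 72 h GDC-0623, against 10.58, 10.44 and 10.50 in 72 h DMSO, a rise of 1.71 ± 0.13 (3.28-fold, adjusted p = 5.20e-05). It had already risen at 24 h, with 10.63, 10.72 and 10.82 in GDC-0623, against 10.26, 10.19 and 10.17 in DMSO (0.52 ± 0.07, 1.43-fold, adjusted p = 0.00144). All 4 groups were separate, with 24 h GDC-0623 just above 72 h DMSO.

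Ifitm3 stood at 13.09, 12.63 and 12.80 in 72 h GDC-0623, against 11.29, 11.23 and 11.11 in 72 h DMSO, a rise of 1.63 ± 0.12 (3.10-fold, adjusted p = 4.44e-05). At 24 h its arrays overlapped, with 10.79, 10.90 and 10.88 in GDC-0623, against 10.87, 11.06 and 10.85 in DMSO (−0.07 ± 0.08, adjusted p = 0.618), and the sign of this small difference turned when arrays were scaled by their hybridization controls (0.08). Its relatives followed in part. Ifitm2 rose by 0.81 at 72 h (adjusted p = 2.04e-04) and stood at −0.04 at 24 h (adjusted p = 0.830), the same pair of calls as Ifitm3 at a smaller size, whereas Ifitm1, Ifitm5, Ifitm6, Ifitm7 and Ifitm10 had group means under 5 and passed no test of the drug effect.

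Mx1 and Mx2, the dynamin-like GTPases, were in or near the background range in all groups but 72 h GDC-0623. Mx1 stood at 7.87, 6.30 and 7.46 there, against 4.51, 4.65 and 4.76 in 72 h DMSO (2.57 ± 0.32, 5.94-fold, adjusted p = 7.46e-04). As the DMSO arrays were in the background range, the size of this fold depends on the background. Its 24 h arrays read 4.59, 4.53 and 4.59 in GDC-0623, against 4.43, 4.24 and 4.36 in DMSO, which did not overlap but missed the threshold (0.23 ± 0.07, adjusted p = 0.0662). Mx1 was called at 24 h when quantile normalization was repeated (0.27, adjusted p = 0.0300) and in the fit on the mean of the probe sets of each gene, in which its value was the same and fewer features were tested (adjusted p = 0.0314). It was also called when arrays were scaled by their hybridization controls (0.38, adjusted p = 0.0207), a scaling that adds 0.15 to the 24 h difference of every gene alike.

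Mx2 stood at 8.05, 6.69 and 6.85 in 72 h GDC-0623, against 5.16, 5.26 and 5.10 in 72 h DMSO (2.02 ± 0.30, 4.07-fold, adjusted p = 0.00156). At 24 h it read 5.17, 4.98 and 5.01 in GDC-0623, against 5.09, 4.96 and 4.83 in DMSO, and the groups overlapped (0.09 ± 0.09, adjusted p = 0.539). The spread within 72 h GDC-0623 was wide for both genes (SD 0.81 for Mx1 and 0.74 for Mx2), with replicate 1 highest. Both genes lie on chromosome 16, with Fam3b between them, and RefSeq annotates both as transcribed pseudogenes in GRCm38.p6, the assembly of the C57BL/6 background from which MC38 derives. The values are therefore transcript levels only. Of the 4 dynamin genes measured, Dnm1 rose at both times (0.64 at 72 h and 1.36 at 24 h, adjusted p = 0.00434 and 1.92e-04), while Dnm2, Dnm3 and Dnm1l stood at 0.12, 0.18 and −0.10 at 72 h and passed at neither time.

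Ifi27l2a had the largest rise of all 18193 genes at 72 h. Its arrays read 9.72, 8.36 and 8.99 in 72 h GDC-0623, against 3.74, 3.54 and 3.76 in 72 h DMSO, a difference of 5.34 ± 0.27 (40.6-fold, adjusted p = 1.11e-05). At 24 h they read 3.35, 3.44 and 3.59 in GDC-0623, against 3.37, 3.08 and 3.25 in DMSO (0.23 ± 0.09, adjusted p = 0.147). The 24 h groups overlapped and all groups but 72 h GDC-0623 were in the background range, so that the size of the fold depends on the background. Scaled by hybridization controls, the 24 h difference was 0.38 and was called (adjusted p = 0.0207), through the same addition of 0.15 to all genes.

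The gene next to it, Ifi27, encodes a relative and had another pattern. Ifi27 averaged 11.3 in 72 h GDC-0623 and 9.68 in 72 h DMSO (1.62, adjusted p = 4.82e-05), and 9.41 in 24 h GDC-0623 and 8.41 in 24 h DMSO (1.00, adjusted p = 0.00619), so that it was well above background in every group and was called at both times. Ifi27l2b, a further relative, stood at −0.06 at 72 h and −0.15 at 24 h and was called at neither.

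Ifi35 stood at 12.18, 11.76 and 12 in 72 h GDC-0623, against 10.37, 10.33 and 10.27 in 72 h DMSO, a rise of 1.66 ± 0.11 (3.15-fold, adjusted p = 2.62e-05). At 24 h it read 10.84, 10.78 and 10.81 in GDC-0623, against 10.03, 10.07 and 9.94 in DMSO, a rise of 0.80 ± 0.07 (1.74-fold, adjusted p = 8.19e-05). All 4 groups were separate, in the same order as for Bst2. Nmi, whose product binds that of Ifi35, moved in the same direction, by 1.32 at 72 h (adjusted p = 2.57e-05) and 0.66 at 24 h (adjusted p = 5.63e-04). Partners of viperin and Ifitm3 did not: Ciao1, Ciao2b and Vapa stood at 0.15, −0.20 and −0.10 at 72 h and at 0.04, 0.04 and −0.0033 at 24 h, and none was called at either time. Over all 18 relatives and partners of the effectors, 5 rose and none fell at 72 h (1 lower at an unadjusted p under 0.05), and 4 rose and none fell at 24 h (none lower at that level), beside 13.8% and 13.3% of all genes called higher. The median of these 18 was 0.06 at 72 h and 0.03 at 24 h.

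**Figure D2:**
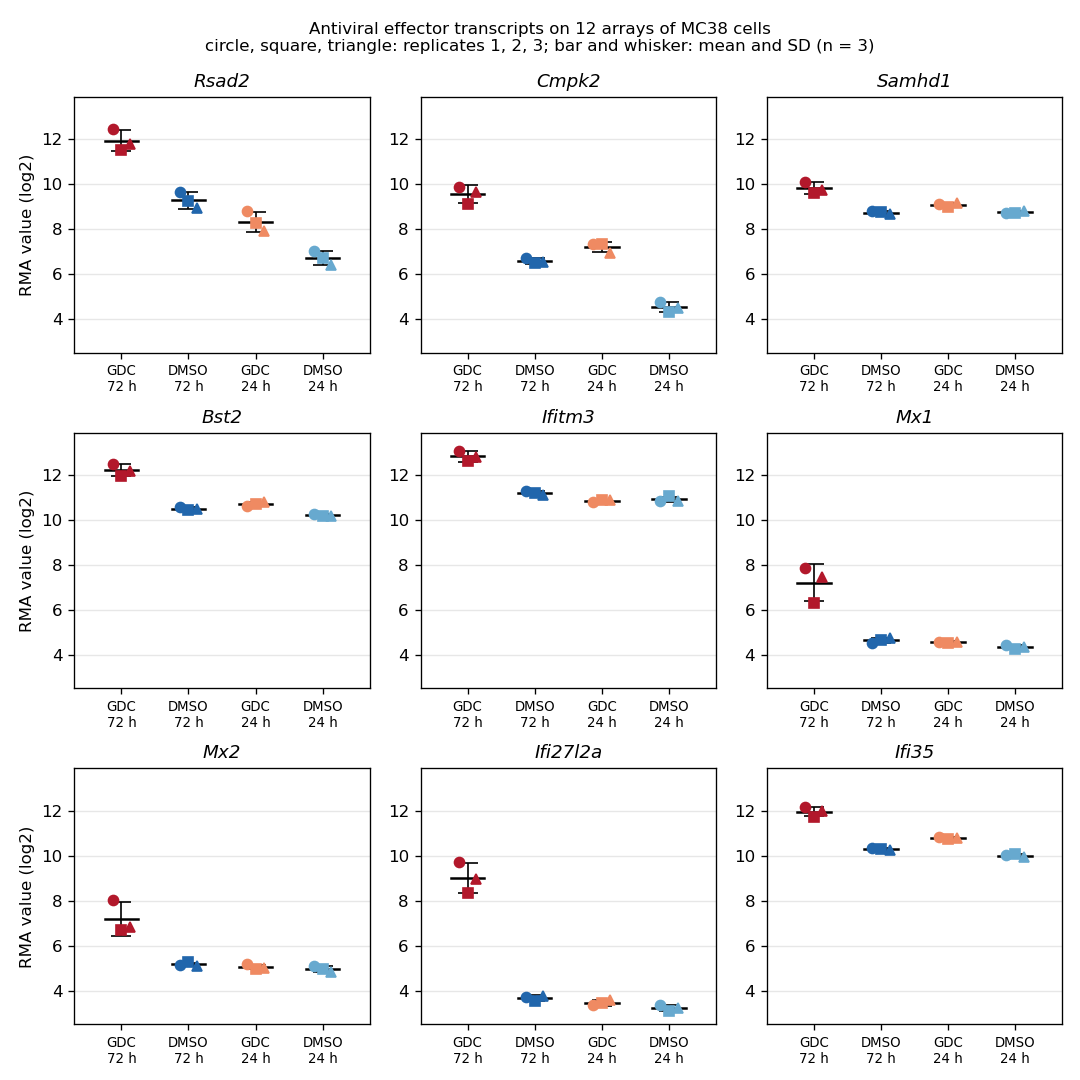
RMA values (y axis, log2) of the 9 effectors per array, with the treatments and times along the x axis (GDC for GDC-0623). Circles, squares and triangles are replicates 1, 2 and 3, bars are group means and whiskers are standard deviations (n = 3). Mx1, Mx2 and Ifi27l2a stay in or near the background range outside 72 h GDC-0623. On the probe sets shown, the 4 groups do not overlap for Rsad2, Cmpk2, Bst2 and Ifi35.

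Whether the drug effect itself differed between the times was tested over all 12 arrays. The effect was larger at 72 h for 7 of the 9 effectors, against 1.62% of all genes. The difference of effects, 72 h minus 24 h, was 5.12 ± 0.33 for Ifi27l2a (adjusted p = 1.21e-05), 2.34 ± 0.38 for Mx1 (adjusted p = 0.00453), 1.93 ± 0.35 for Mx2 (adjusted p = 0.00979) and 1.70 ± 0.15 for Ifitm3 (adjusted p = 5.93e-05). These 4 genes were those not called at 24 h. Of them, Ifi27l2a, Mx1 and Mx2 were in or near the background range in all groups but 72 h GDC-0623. The size of the difference therefore depends on the background for these genes. For the genes with an early rise the difference of effects was 1.20 ± 0.16 for Bst2 (adjusted p = 0.00118), 0.86 ± 0.13 for Ifi35 (adjusted p = 0.00279) and 0.76 ± 0.15 for Samhd1 (adjusted p = 0.0175).

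For the neighbors Rsad2 and Cmpk2 the test was not passed, with 1.01 ± 0.37 (adjusted p = 0.214) and 0.29 ± 0.25 (adjusted p = 0.650). The second probe set of Cmpk2 gave another answer, as described with the probe sets. The call for Rsad2 changed when the replicate number was used as a block, as described with the processing. The Samhd1 call was lost without 24 h GDC-0623 replicate 2 (0.71, adjusted p = 0.0571), without 24 h DMSO replicate 3 (0.73, adjusted p = 0.0520), with hybridization control scaling (0.62, adjusted p = 0.0686) and in the mean of its probe sets (0.43, adjusted p = 0.150).

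Time in culture was examined separately with and without the drug. Under GDC-0623, all 9 effectors were higher at 72 h than at 24 h with no overlap, against 5.79% of genes called higher and 14.1% higher without overlap. Ifi27l2a differed by 5.56 (47.3-fold, adjusted p = 1.75e-05), a fold that depends on the background, in which its 24 h arrays lay. Rsad2 differed by 3.60 (12.1-fold, adjusted p = 8.59e-05), Mx1 by 2.64 (adjusted p = 0.00141), Cmpk2 by 2.35 (adjusted p = 1.49e-04) and Mx2 by 2.14 (adjusted p = 0.00292). The other 4 lay between 0.73 for Samhd1 (adjusted p = 0.00965) and 1.98 for Ifitm3 (adjusted p = 3.57e-05). The Samhd1 call was lost without 24 h GDC-0623 replicate 2 (adjusted p = 0.0588) and in the mean of its probe sets (0.40, adjusted p = 0.0850). Only the chosen Samhd1 probe set was called here. The next brightest, 1434438_at, differed by 0.44 (adjusted p = 0.0858). These comparisons use the same arrays as the drug comparisons and are not independent of them.

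In DMSO alone, 5 of the 9 were higher at 72 h than at 24 h, against 8.41% of all genes, and 8 of the 9 were higher with no overlap, against 17.2%. The large differences were those of Rsad2 and Cmpk2. Rsad2 rose by 2.59 ± 0.20 (6.01-fold, adjusted p = 2.91e-04) and Cmpk2 by 2.06 ± 0.12 (4.16-fold, adjusted p = 7.42e-05), and both were called with any single array left out. The 24 h DMSO arrays of Cmpk2 were in the background range, so that its fold depends on the background. Ifi27l2a (0.45, adjusted p = 0.0203), Ifi35 (0.31, adjusted p = 0.0199) and Bst2 (0.30, adjusted p = 0.0229) rose by less. The DMSO arrays of Ifi27l2a, at 3.08 to 3.76, were all in the background range. The dimmest Ifi35 probe set, 1459151_x_at, was not called in this comparison (0.13, adjusted p = 0.209). Mx1, Ifitm3 and Mx2 stood at 0.30, 0.28 and 0.21 (adjusted p = 0.0607, 0.0626 and 0.151), and Samhd1 at −0.02 (adjusted p = 0.862). The count of 5 fell to 2 without 24 h DMSO replicate 3 and to 3 without 72 h DMSO replicate 1 or 3, through the small rises.

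**Figure D3:**
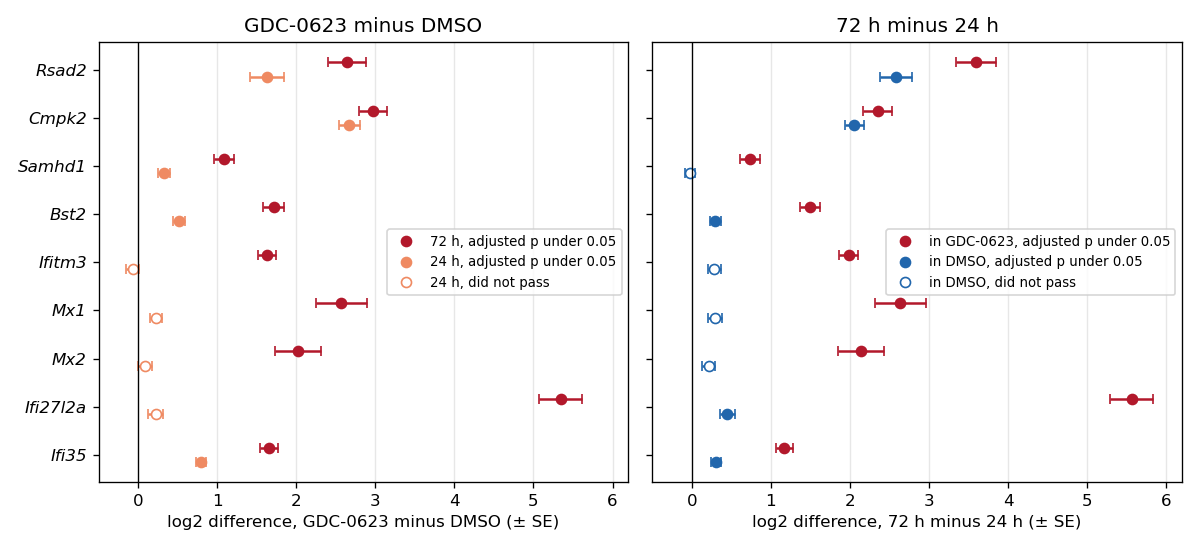
Log2 differences of the 9 effectors with standard errors from limma (3 arrays per group). Left, GDC-0623 minus DMSO at 72 h (red) and at 24 h (orange). Right, 72 h minus 24 h in GDC-0623 (red) and in DMSO (blue). Filled points passed an adjusted p of 0.05 and open points did not. Rsad2 and Cmpk2 differ in all 4 comparisons by more than 1.5, while Ifi27l2a differs by more than 5 at 72 h and between the times under GDC-0623.

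Within 72 h GDC-0623 the arrays kept the same order for every effector, with replicate 1 highest and replicate 2 lowest in 9 of 9 genes. Replicate 1 is the array that stood apart on the first principal component. Without it, all 9 were called at 72 h. Samhd1 then differed by 0.94, and Ifi27l2a was 31.9-fold higher than in DMSO. Mx2 differed by 1.60 (3.02-fold), Mx1 by 2.24, Rsad2 by 2.38 and Cmpk2 by 2.80. In each of the other 3 groups, no array was highest for all of the genes.

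For 4 of the 9 genes the array carries more than 1 probe set, which makes 18 in all. At 72 h, 16 of the 18 were called higher, against 10.1% of all probe sets, and at 24 h 12 were, against 9.29%, with none lower at either time. Ifi35 had 3 probe sets that moved alike (1.66, 1.70 and 1.88 at 72 h, and 0.80, 0.76 and 0.82 at 24 h), and so did the 3 of Rsad2 (2.64, 2.78 and 2.64, and 1.63, 1.96 and 1.54). The second Cmpk2 probe set, 1422095_a_at, had values of 9.35, 8.71 and 8.71 in 72 h GDC-0623, against 6.72, 6.18 and 6.28 in 72 h DMSO, and 6.66, 6.37 and 6.15 in 24 h GDC-0623, against 5.17, 5.04 and 5.09 in 24 h DMSO. It rose by 2.53 at 72 h and by 1.29 at 24 h, and on this probe set the effects differed between the times (1.24, adjusted p = 0.0199), unlike on the brighter probe set.

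Samhd1 had 5 probe sets. The next brightest, 1434438_at, resembled the chosen probe set in the differences from DMSO (1.19 at 72 h and 0.41 at 24 h). In DMSO, however, it was lower at 72 h than at 24 h (−0.34, adjusted p = 0.00804), the only lower call among the 18 probe sets in the comparisons made. Of the dimmer ones, 1420272_at was called at both times (0.48 and 0.28), whereas 1420273_x_at (0.38 and 0.27) and 1444064_at (0.23 and −0.07) were not.

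**Figure D4:**
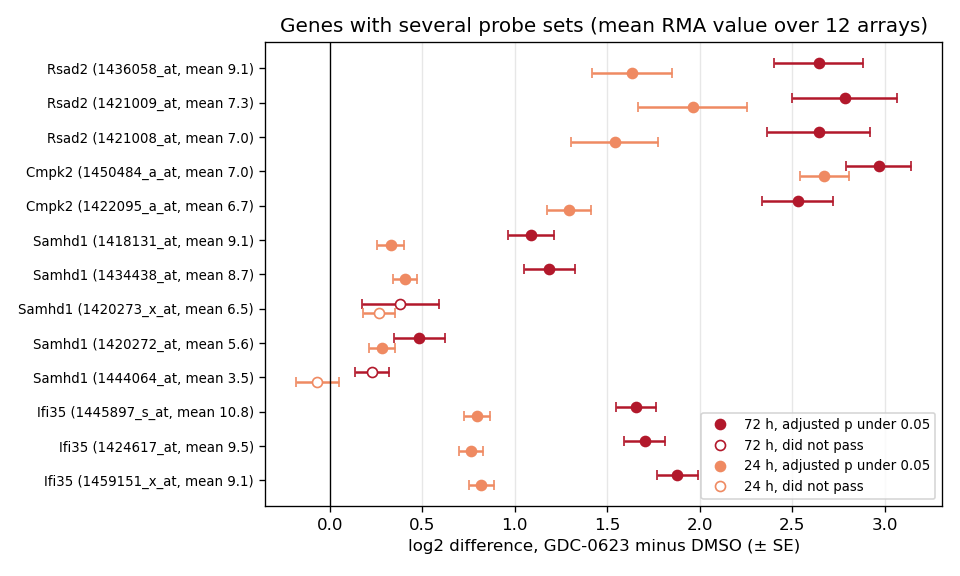
Log2 difference GDC-0623 minus DMSO with standard error (x axis) for every probe set of the 4 genes with more than 1 (rows, with the mean level over 12 arrays), at 72 h (red) and 24 h (orange). Filled points passed an adjusted p of 0.05. The probe sets of Rsad2 and of Ifi35 lie close together, those of Cmpk2 part at 24 h (2.67 and 1.29), and the dim probe sets of Samhd1 show smaller differences than the bright ones.

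The effectors were compared with each other and with 9475 other genes by Pearson's r over the 12 arrays, as a description, since the arrays fall into 4 groups. Between the 36 pairs of effectors r lay between 0.826 and 0.988, with a median of 0.932. Among the genes not called at 24 h, those most like Ifi27l2a were Oas2, Phf11d and Zbp1 (0.997, 0.996 and 0.995), for Ifitm3 Zbp1, Apod and Isg20 (0.995, 0.991 and 0.986), for Mx1 Slfn2, Rnf213 and Il18bp (0.989, 0.988 and 0.984), and for Mx2 LOC664787, Ctsz and Agrn (0.993, 0.993 and 0.989). For the genes with an early, smaller rise, they were Iigp1, Irf7 and Tlr3 for Bst2 (0.996 each), Pdzd2, Parp14 and Samd9l for Ifi35 (0.998, 0.997 and 0.997), and Parp3, Cxcl12 and Postn for Samhd1 (0.989, 0.989 and 0.988). Rsad2 and Cmpk2 had other lists, with the chemokine Ccl5, Nnmt and Selenok for Rsad2 (0.993, 0.989 and 0.989) and Tmem14a, Tbc1d8b and B3gnt3 for Cmpk2 (0.993, 0.992 and 0.991).

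Most of the remaining antiviral effectors of the interferon response rose at 72 h. Of 26 measured, 21 rose and none fell at 72 h (median 1.88), against 13.8% of all genes called higher. At 24 h, 13 rose and none fell (median 0.31), against 13.3% of all genes, with none lower at an unadjusted p under 0.05 at either time. At 72 h the largest were Ifit3, of the family of tetratricopeptide repeat proteins (4.69), the Z-nucleic acid sensor Zbp1 (4.19) and Oas1a, an oligoadenylate synthetase (4.06), and at 24 h Ifit1 (2.44), Oasl2 (2.21) and the tripartite motif gene Trim30a (2.04). Late and early rises were both found in this list. Zbp1 and Oas1a were not called at 24 h (0.09 and 0.30, adjusted p = 0.707 and 0.228), whereas Ifit1 was called at both times (3.25 and 2.44) and in the DMSO cultures over time (adjusted p = 3.66e-04), and the difference of its drug effects did not pass (0.81, adjusted p = 0.312).

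Genes that carry the interferon signal rose in part. Of 14 measured, 10 rose and 1 fell at 72 h, and 7 rose and 1 fell at 24 h (median 0.51 and 0.35). Of all genes, 13.8% were called higher and 12.4% lower at 72 h, and 13.3% higher and 8.23% lower at 24 h. At 72 h the largest were Irf7, a transcription factor that amplifies the response (4.33), Usp18, a protease of ISG15 that also restrains the receptor (4.11) and Stat2 (3.32), and at 24 h Usp18 (1.88), Irf9 (1.30) and Irf7 (1.22). The gene that fell at 72 h was Irf5 (−0.29, adjusted p = 0.0493, a call lost without any of 5 of the 6 arrays) and at 24 h Socs1, a suppressor of the signal (−0.47, adjusted p = 0.00136), which was higher at 72 h (0.40, adjusted p = 0.00831). The interferon genes that were measured were not called, while Ifne, Ifnk, Ifnl2 and Ifnl3 were not measured. Of Ifnb1, Ifna1, Ifna2, Ifna4, Ifna5 and Ifng, limma called 0 of 6 at either time (at an unadjusted p under 0.05, 1 was higher at 72 h and none at 24 h), and all their values lay between 2.68 and 4.98. At this level a change in their transcripts was not detectable, which is not the same as no change.

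Markers of leukocytes were mostly in the background range. Of 11 leukocyte and plasmacytoid dendritic cell markers, Tcf4 rose by 0.35 at 72 h (adjusted p = 0.0287, lost without any of 5 of the 6 arrays) and none was called at 24 h (none at an unadjusted p under 0.05). The shares of all genes called higher were 13.8% at 72 h and 13.3% at 24 h. Cd68, a macrophage lysosomal protein, differed by −0.55 at 72 h and was not called (adjusted p = 0.0726), the 1 marker lower at an unadjusted p under 0.05. The array means of this list lay between 4.73 and 4.81 in 72 h GDC-0623 and between 4.75 and 4.82 in 72 h DMSO, and between 4.65 and 4.88 in 24 h GDC-0623 and between 4.76 and 4.82 in 24 h DMSO. Ptprc and Siglech were in the background range throughout, with group means of 2.87, 2.75, 2.89 and 2.91 for Ptprc and 4.55, 4.57, 4.62 and 4.70 for Siglech in 72 h GDC-0623, 72 h DMSO, 24 h GDC-0623 and 24 h DMSO. Not every marker was that dim. The highest values of the list were 8.63, 8.16, 8.08 and 8.01 in these groups, and the higher 72 h group mean of Tcf4 was at least 6.

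The epithelial markers do not bear out the carcinoma label at the level of transcripts. No value of Epcam, Cdh1, Krt8, Krt18, Krt19, Krt20, Cdx2 or Vil1 was above 5.76. At these levels, in or near the background range, 1 of the 8 was called, Krt8, lower by 0.40 at 72 h (adjusted p = 0.0133). Among all genes 12.4% were called lower at that time. Of 8 fibroblast and endothelial markers, Col1a2 was called at both times (1.49 at 72 h and 1.45 at 24 h), Col1a1 at 72 h (0.91, at a level of 5.09), and the endothelial Pecam1, Cdh5, Kdr and Tek were in the background range. These calls stand beside 13.8% of all genes called higher at 72 h and 13.3% at 24 h. The list was not all dim, and the higher group mean of Col1a2 was at least 6 at both times. Its highest values over all 8 markers were 10.86 in 72 h GDC-0623, 9.59 in 72 h DMSO, 10.8 in 24 h GDC-0623 and 9.3 in 24 h DMSO. The part of the collagen changes in the values of the effectors was not tested.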

How the data were processed

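The authors hybridised RNA from MC38 cultures to Affymetrix mouse GeneChip arrays, which read transcripts from the 3 prime end, and normalized them by RMA (background correction, quantile normalization and probe set summary), per the series' description and the submitters' processing notes. The deposited values are the resulting log2 expression values. The sources used here do not state the RMA version or which arrays were normalized together. Quantile normalization removes a shift shared by most genes, and RMA gives no detection call. The number of arrays limits the precision.

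The table held 45101 probe sets, of which 64 controls were left out and 45037 were tested. GEO's platform annotation, updated by gene identifier, gave 1 symbol to 34945 probe sets, several to 932 and none to 9160, and 34741 were matched in the RefSeq gene table. No pair of arrays shared more than 3.20% of equal values, so none was counted as a duplicate.

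Two-sided tests were made in R 4.3.3 with limma 3.58.1 (functions lmFit and eBayes) on the 6 arrays of each pair of groups, and on all 12 for the difference of drug effects. P-values were adjusted after Benjamini and Hochberg across the 45037 probe sets. The scripts were tested on simulated data. Motifs were searched with Python 3.11, and figures were drawn with matplotlib 3.10.

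The effector genes and the gene lists were chosen with earlier results of these data known. All effectors were named, from each other list up to 3 called genes per drug comparison with the largest change and a group mean of at least 6, and per effector the 3 most alike genes with such a mean. Other relatives, partners, interferon genes and markers were named after their values were seen.

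Alternative settings were a joint fit of the 12 arrays, the replicate number as a blocking term, removal of dim probe sets (those without a value of 5 or more on 3 or more arrays), a second quantile normalization, scaling of the arrays to their 18 hybridization control probe sets, another prior (trended and robust), array weights, a test against a fold of 1.5, averaging over a gene's probe sets, and omission of single arrays. A further setting took, where available, the brightest probe set without an _s, _x or _a suffix in its name. It read the reported fit, so that genes whose probe set stayed the same kept their values.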

Additional observations from a re-analysis of the deposited data

Results flagged for a closer look

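For 7 of the 9 effectors the drug effect at 72 h differed from that at 24 h in a test of the difference itself (limma, 12 arrays, adjusted over all probe sets). The difference, 72 h minus 24 h on the log2 scale, was 5.12 for Ifi27l2a (adjusted p = 1.21e-05), 2.34 for Mx1 (adjusted p = 0.00453), 1.93 for Mx2 (adjusted p = 0.00979), 1.70 for Ifitm3 (adjusted p = 5.93e-05), 1.20 for Bst2 (adjusted p = 0.00118), 0.86 for Ifi35 (adjusted p = 0.00279) and 0.76 for Samhd1 (adjusted p = 0.0175). Such a difference was called in 1.62% of all genes in this direction. Outside 72 h GDC-0623, Ifi27l2a, Mx1 and Mx2 were in or near the background range, so that the size of their differences depends on the background. Single arrays were not tested as outliers within their groups of 3.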

How the results depend on the processing

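Over the 5 comparisons, the numbers of effectors called higher and called lower were recomputed 170 times. Of these counts, 162 lay within 1.5 times the reported one. The numbers called lower were 0 in the reported fits and under every setting, so that all of them are among the 162. The 8 counts that moved were all numbers called higher. With a minimum fold of 1.5, the effectors called higher numbered 2 at 24 h in place of 5, 2 for the difference of drug effects in place of 7, and 2 over time in DMSO in place of 5. In DMSO the count was 3 in 1 fit over all 12 arrays, 3 with the hybridization control shift, and 2 to 4 with an array left out. Of 761 recomputed values of single genes, 708 kept their direction and call, 36 lost the call, 13 gained it and 4 changed sign. The sign changes concerned differences near 0, namely Ifitm3 at 24 h (0.081 with the hybridization control shift) and Samhd1 over time in DMSO (0.0096 with that shift, and −0.052 to 0.0083 with an array left out). The causes were not tested. That shift moved the median of all genes by 0.15 at 24 h and 0.01 at 72 h. The call of Samhd1 at 72 h was lost with a minimum fold of 1.5 (adjusted p = 0.0719).

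Samples with the same replicate number in different groups are not said to share anything but that number. Their deviations from the group means correlated at 0.0135 to 0.289 over 12 pairs, 6 of them over 0.1, and 20 of 24 comparisons of an array with the 3 arrays of another group were highest for its own number. With the replicate number as a block, 9 effectors were higher at 72 h, 5 at 24 h, 8 for the difference of drug effects, 9 over time in GDC-0623 and 5 over time in DMSO. The added call was that of Rsad2 (1.01, adjusted p = 0.00882).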

Other observations

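Relative to each other, the neighbors Rsad2 and Cmpk2 held different orders of the conditions. Rsad2 averaged 8.33 ± 0.45 in 24 h GDC-0623 and 9.29 ± 0.37 in 72 h DMSO, whereas Cmpk2 averaged 7.20 ± 0.21 in 24 h GDC-0623 and 6.58 ± 0.13 in 72 h DMSO (log2, SD, n = 3). On these probe sets the arrays of these groups did not overlap for either gene. On the second Cmpk2 probe set, 1422095_a_at, they overlapped, with 6.66, 6.37 and 6.15 in 24 h GDC-0623, against 6.72, 6.18 and 6.28 in 72 h DMSO. Treatment and time both differ between these groups, and the contrast was not tested.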
